A study of Oryza sativa with 12 samples.

Results

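The regions described here are the binding sites of the rice transcription factor IDD7 in the outermost 5 Mb of the long arm of each of the 12 chromosomes. They were chosen by position alone. The authors deposited 2 lists of IDD7 peak summits, called list A and list B, and a summit was counted at the midpoint of its interval. On 11 chromosomes the distal end of the long arm is the last 5 Mb of the sequence. On chromosome 3, whose longer arm comes first in the numbering, it is the first 5 Mb. The distal ends held 4268 of 27495 summits in list A (15.5%) and 3926 of 24744 in list B (15.9%). These ends made up 60 of 374.2 Mb, with every sequence in the lists counted up to its highest interval end. A list A summit with a list B summit within 250 bp was called shared, and 2392 of 15606 shared summits (15.3%) lay in the distal ends. Over the whole lists, 56.8% of list A and 63.1% of list B summits had such a partner. Counting each shared summit once, the ends held 5801 of 36632 positions in either list.

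The study asked where OsIDD7 binds the genome, in work on arbuscular mycorrhizal symbiosis. It used DNA affinity purification sequencing (DAP-seq), in which a tagged protein made in a cell-free system captures fragments of purified genomic DNA, which are then sequenced. The DNA came from roots of Oryza sativa ssp. japonica cv. Nipponbare, inoculated with the fungus Rhizophagus irregularis, given 25 uM phosphate and harvested after 7 weeks at over 90% colonization, and it was the same kind of material for every group. HaloTag-IDD7 was used in 6 libraries and HaloTag-GFP, the control protein, in 6. Each list pools 3 biological replicates (numbered 2, 3 and 4) of one technical replicate, A or B, with peaks called relative to GFP. The lists therefore measure repeatability between technical pools, and no value per plant or per library exists in them.

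IDD proteins are plant transcription factors that bind DNA through the zinc fingers of the indeterminate domain. The distal long arms of rice chromosomes are known as gene-rich, recombining euchromatin, whereas sequence around the centromeres and on some short arms is rich in repeats. In DAP-seq the DNA carries no nucleosomes, so the closed or open state of chromatin in the root does not enter the assay, while the sequence itself does. The centromeres are not marked in the lists, so which arm is the longer one was taken from general knowledge of the rice karyotype and was not checked in these data.

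Neither list gives a peak height, an enrichment or a significance. The depth behind a peak is thus unknown, and the only measures available are where summits lie, how densely, and whether they recur. A site here is a called summit, and calls that do not reflect IDD7 binding could not be told apart from those that do. No gene or base sequence is given for a site, because no sequence or gene annotation of the build of the lists was used here. Coordinates are those of the lists, and no source used here names their build. The chromosome end was the highest interval end in either list, so sequence beyond the last called interval was not counted.

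Shared IDD7 sites were present along every distal end. Per chromosome, a mean of 39.9 shared summits lay in each Mb (SD 4.78, n = 12). The interior, which is everything more than 5 Mb from both ends, held a mean of 42.7 per Mb (SD 1.73). The distal density was lower than the interior density on 11 chromosomes and higher on 1, chromosome 3. The mean difference was -2.88 summits per Mb (SD 3.67), and the ratio of distal to interior density averaged 0.93. This difference passed the threshold of 0.05 before adjustment and did not pass it after adjustment over all 22 comparisons (two-sided exact sign-flip test over chromosomes, p = 0.0215, adjusted p = 0.140). With ends of 2, 6 or 8 Mb, or against the next 5 Mb alone, it did not pass before adjustment either (exact sign-flip p = 0.173, 0.122, 0.146 and 0.0854). Chromosome 3 decided the outcome after adjustment. With the last 5 Mb of chromosome 3 taken as its distal end, all 12 ends lay below their interiors, with a mean difference of -3.78 summits per Mb (exact sign-flip p = 0.000488, the smallest that 12 chromosomes can give; adjusted p = 0.00537). Without chromosome 3, the mean difference was -3.71 per Mb over 11 chromosomes (exact sign-flip p = 0.000977, adjusted p = 0.0107). Chromosome 3 was the only one above its interior, so leaving it out had to give the smallest p that 11 chromosomes can give. That p-value is thus no separate support for a lower distal density. Chromosomes are the units of these tests and are not replicates of the experiment. A lower shared density in the outer 5 Mb of the chromosomes was known from these data before this comparison was chosen. Its p-values are therefore not independent of that earlier result.

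The distal ends formed a continuous range with chromosomes 3 and 12 at its edges. Chromosome 3 held 256 shared summits in its distal 5 Mb, or 51.2 per Mb (95% exact Poisson interval 45.1 to 57.9). Its interior had 45.0 per Mb. Chromosome 12 held 158, or 31.6 per Mb (26.9 to 36.9), against 40.8 per Mb in its interior. Chromosome 6 followed with 182, or 36.4 per Mb (31.3 to 42.1), against 42.1. On these 3 chromosomes the interval of the distal density did not hold the interior density, and on the other 9 it did. On chromosomes 3 and 6 the margin was under 1 summit per Mb. On chromosome 6 the upper limit of 42.090 lay just below the interior value of 42.094. The interior density was taken as a single value here. Its own counting interval was 42.4 to 47.6 per Mb on chromosome 3 and 39.4 to 44.9 on chromosome 6. On both chromosomes it overlapped the distal interval. The intervals cover counting error only, and counts in 1 Mb bins varied more than that, as given below.

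Between these edges the densities were close together. Chromosome 4 had 44.2 shared summits per Mb and chromosome 2 had 42.4. Chromosomes 7, 10, 1, 8, 11, 5 and 9 had 40.8, 40.4, 39.4, 38.8, 38.4, 37.6 and 37.2 per Mb. No neighbours in this order differed beyond the counting intervals, which overlapped for every neighbouring pair. The ratio of distal to interior density ran from 0.77 on chromosome 12 to 1.14 on chromosome 3, with 0.99 on chromosome 10 and 0.98 on chromosome 4. Across the 12 ends the variance of the shared count was 2.86 times its mean.

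**Figure D1:**
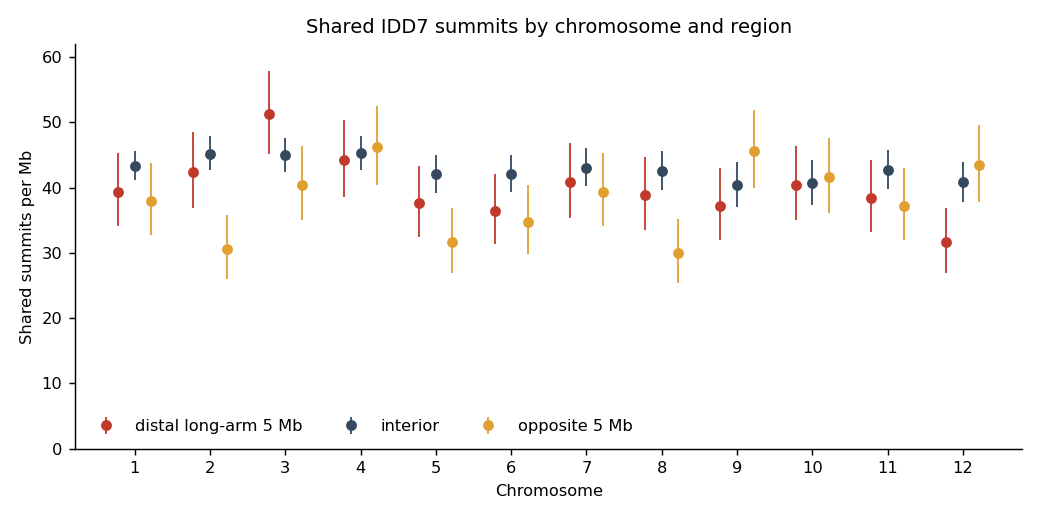
Shared IDD7 summits per Mb (y axis) on each chromosome (x axis) in the distal long-arm 5 Mb, the interior and the opposite 5 Mb. Points are densities and lines are 95% exact Poisson intervals (counting error only). The distal point lies below the interior point on 11 chromosomes, and chromosome 3 is the exception with 51.2 against 45.0 per Mb.

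The opposite ends held a mean of 38.2 shared summits per Mb (SD 5.60, n = 12) and lay below the interior on 8 chromosomes. The distal end was the denser of both ends on 8 chromosomes and the sparser on 4, with a mean difference of 1.63 per Mb (SD 7.14; exact sign-flip p = 0.443, adjusted p = 0.602). Both ends lay below the interior on chromosomes 1, 2, 5, 6, 7, 8 and 11. On chromosomes 4, 9, 10 and 12 the distal end lay below the interior and the opposite end above it. Chromosome 3 showed the reverse order. The largest differences between both ends of a chromosome were 59 shared summits in each direction. Chromosome 2 had 212 shared summits in the distal and 153 in the opposite 5 Mb. Chromosome 12 had 158 and 217. Chromosome 3 had 256 and 202, chromosome 8 had 194 and 150, and chromosome 9 had 186 and 228. The short arm of chromosome 9 is known to be very short, so its centromere lies close to the opposite end, and the short arms of chromosomes 4 and 10 are known to be heterochromatic. On each of these 3 chromosomes the opposite end was the denser, so leaving them out had to raise the mean difference. Without them the distal end was denser by 3.47 per Mb, a difference that did not pass the test either (exact sign-flip p = 0.180, adjusted p = 0.359). A lower density specific to the long-arm end was therefore not shown.

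Sites that appeared in 1 list only had a different balance of directions. List A only summits had 31.3 per Mb in the distal ends (SD 2.50) and 32.0 in the interior (SD 1.56), and were lower on 7 chromosomes and higher on 5 (exact sign-flip p = 0.465, adjusted p = 0.602). List B only summits had 25.6 per Mb (SD 3.43) and 24.6 (SD 1.98), and were higher on 7 and lower on 5 (exact sign-flip p = 0.350, adjusted p = 0.598). Chromosome 10 had the most list A only summits, 179, and chromosome 12 the fewest, 135. Chromosome 2 had the most list B only summits, 162, and chromosome 8 the fewest, 101. The distal end of chromosome 2 was the only one with more list B than list A summits, 374 against 361, and it lay at 0.05 on the log2 scale of list B over list A counts. Chromosome 8, with 295 against 356, was lowest at -0.27. The mean of that log2 ratio was -0.12 (SD 0.09) in the distal ends and -0.15 (SD 0.05) in the interior, a difference that did not pass the test (exact sign-flip p = 0.397, adjusted p = 0.598).

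Against the opposite ends, list B only summits had the larger contrast of the unmatched sites. They numbered 25.6 per Mb in the distal ends and 22.6 in the opposite ends (SD 2.53), and were higher in the distal end on 8 chromosomes, lower on 3 and equal on 1. The difference of 2.93 per Mb did not pass after adjustment (exact sign-flip p = 0.0332, adjusted p = 0.146). List A only summits differed by 0.33 per Mb (exact sign-flip p = 0.808, adjusted p = 0.863). Counted whole, list A had 71.1 summits per Mb in the distal ends (SD 5.87) and 74.8 in the interior (SD 2.92), which did not pass (exact sign-flip p = 0.0566, adjusted p = 0.208). List B had 65.4 (SD 7.29) and 67.4 (SD 2.95), which did not pass either (exact sign-flip p = 0.254, adjusted p = 0.560).

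**Figure D2:**
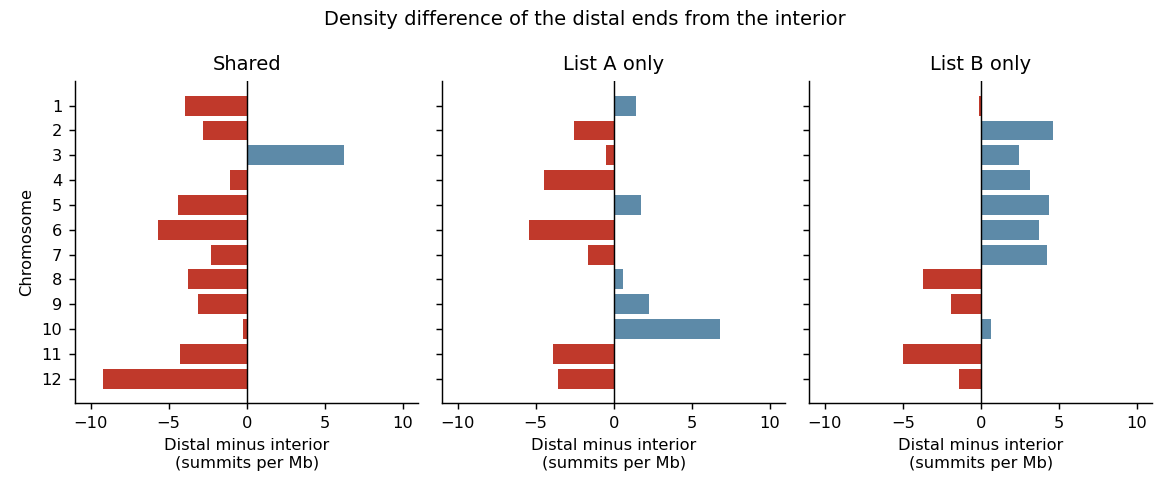
Density in the distal 5 Mb minus density in the interior (x axis, summits per Mb) on each chromosome (y axis), for shared summits and for summits found in list A only or list B only. Bars left of 0 are lower in the distal end: 11 of 12 for shared summits, 7 of 12 for list A only and 5 of 12 for list B only.

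The next comparison asked how often a distal site was called in both pools. The background is the 56.8% of list A and the 63.1% of list B given above. In the distal ends 2392 of 4268 list A summits had a partner, or 56.0% (95% Wilson interval 54.6 to 57.5%), and 2393 of 3926 list B summits, or 61.0% (59.4 to 62.5%). In the interior the shares were 57.2% (56.5 to 57.9%) and 63.6% (62.9 to 64.3%). Over chromosomes, the list A share averaged 55.9% (SD 2.97) in the distal ends and 57.2% (SD 1.00) in the interior, lower on 7 and higher on 5 (exact sign-flip p = 0.181, adjusted p = 0.497). The list B share averaged 61.0% (SD 2.80) against 63.5% (SD 1.84), lower on 9 and higher on 3. This passed before adjustment only (exact sign-flip p = 0.0254, adjusted p = 0.140). Against the opposite ends, neither share passed (55.2% in list A, exact sign-flip p = 0.387, adjusted p = 0.598; 62.7% in list B, exact sign-flip p = 0.226, adjusted p = 0.553).

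The distal end of chromosome 3, the densest, also had the highest recurring share of list A, 61.8% (57.1 to 66.4%). Chromosome 4 followed with 60.2% and chromosome 2 with 58.7%. The lowest was chromosome 5, with 52.4% (47.2 to 57.5%). In list B the order differed. Chromosome 8 was highest with 65.8% (60.2 to 70.9%), ahead of chromosome 3 with 64.3%, and chromosome 2 was lowest with 56.7% (51.6 to 61.6%). Shared summits enter both the density and the share, so the high share on chromosome 3 is not independent of its density.

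**Figure D3:**
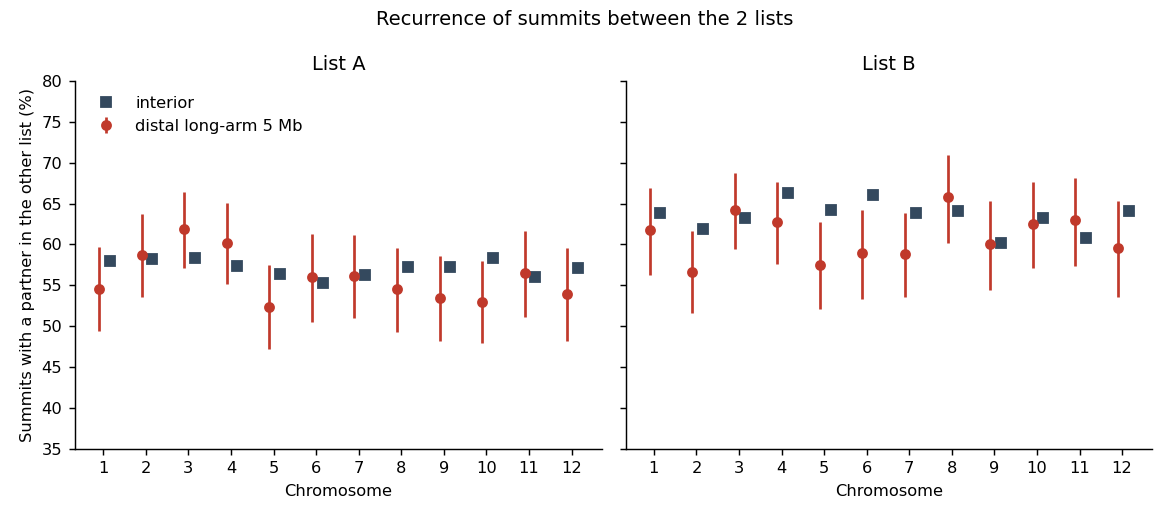
Percentage of summits with a partner within 250 bp in the other list (y axis, which does not start at 0) by chromosome (x axis), for list A and list B. Circles with lines are the distal ends with 95% Wilson intervals, and squares are the interiors. In list A the distal ends run from 52.4% to 61.8%, and in list B from 56.7% to 65.8%.

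Where a distal site recurred, both pools placed it at nearly the same base. The median distance between partners was 16 bp in the distal ends, with middle quartiles of 6 and 35 bp, against 15 bp (6 to 34) in the interior. Within 10 bp lay 38.0% of partners, within 50 bp 85.4% and within 100 bp 95.2%, and 67 of 2392 were at the identical base. Partners lay to the right in 1178 cases and to the left in 1147. By chromosome the median ran from 12 bp on chromosome 5 to 19 bp on chromosomes 8 and 10. The mean of these medians was 16.1 bp (SD 2.24) in the distal ends and 15.5 bp (SD 1.00) in the interior (exact sign-flip p = 0.408, adjusted p = 0.598). Just outside the 250 bp limit there were few candidates. Of 1876 list A only summits in the distal ends, 83 (4.42%) had a list B summit more than 250 and less than 500 bp away. In the interior there were 417 (5.12%) and in the opposite ends 96 (5.17%). The median distance from a list A only summit to the nearest list B summit was 4982 bp in the distal ends. It was 4450 bp in the interior and 5167.5 bp in the opposite ends, and these differences were not tested.

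The spacing of sites followed the density. The median gap between neighbouring list A summits averaged 8931 bp (SD 1122) in the distal ends and 7926 bp (SD 436) in the interior, wider on 11 chromosomes. It ran from 6879 bp on chromosome 3 to 11615 bp on chromosome 12. A list A summit had another within 2 kb in 27.6% of cases (SD 2.63), against 30.5% in the interior (SD 1.95), lower on 10 chromosomes. Neither measure passed after adjustment (exact sign-flip p = 0.00977 and adjusted p = 0.140 for the gap, p = 0.0142 and adjusted p = 0.140 for the neighbours). As with the density, chromosome 3 decided both. Without it the gap was wider by 1211 bp (exact sign-flip test, adjusted p = 0.0107) and the share with a neighbour was lower by 3.42 percentage points (exact sign-flip test, adjusted p = 0.0286). Chromosome 3 was the only one with a narrower distal gap, so leaving it out had to give the smallest p that 11 chromosomes can give. It was also among the 2 chromosomes with a higher distal share with a neighbour, so leaving it out had to enlarge that difference too. Gap and density are measures of the same summits and are not independent. Against the opposite ends, the mean gap of 9051 bp there differed from the distal one by less than its spread over chromosomes (SD 1209; exact sign-flip p = 0.824, adjusted p = 0.863), and the share with a neighbour was 26.3% (exact sign-flip p = 0.385, adjusted p = 0.598).

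Few summits lay very close together, in the distal ends as in the interior. In list A 70 of 4268 distal summits lay under 500 bp from a neighbour, against 393 of 19046 in the interior. Of the 70, 35 were shared, against 186 of the 393 (47.3%). In list B there were 88 of 3926 in the distal ends and 335 of 17141 in the interior. Of the 88, 46 (52.3%) were shared, against 174 of the 335 (51.9%). Close summits were thus proportionally fewer in the distal ends in list A and more in list B. These differences were not tested.

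Within the distal 5 Mb no gradient common to the chromosomes was detected. From the end inward, the 1 Mb bins held a mean of 37.8, 41.4, 38.4, 40.5 and 41.2 shared summits (SD between 7.60 and 9.90, n = 12 each). The outermost bin was the lowest in the mean, but single ends ranged from 23 to 56 in it. The outer 2 Mb had 39.6 per Mb (SD 6.06) and the 3 Mb next to it 40.0 (SD 6.78), with the outer part higher on 6 chromosomes and lower on 6 (exact sign-flip p = 0.880, adjusted p = 0.880). Just inside and just outside the 5 Mb limit, the bins held 41.2 and 44.7 (SD 9.90 and 11.5). The next 5 Mb stretch inward held more shared summits than the distal one on 7 of 12 chromosomes. Of the complete 5 Mb stretches counted inward, the distal one was the sparsest on chromosome 9 alone and was the densest on 0 of 12 chromosomes. It was the next to lowest on chromosomes 1, 5, 6, 7, 8, 10 and 12, and ranked higher on chromosomes 2, 3, 4 and 11. On chromosome 12, with 5 stretches, the lowest was the one beside it, which held 138.

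**Figure D4:**
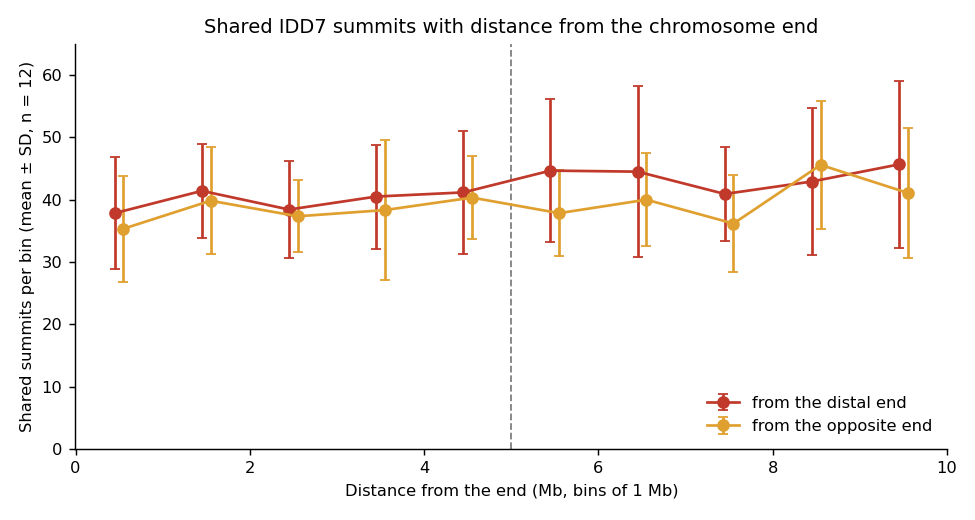
Mean number of shared summits per 1 Mb bin (y axis, ± SD over 12 chromosomes) by distance from the distal and from the opposite chromosome end (x axis, Mb). The dashed line marks the 5 Mb limit. From the distal end the first 5 bins lie between 37.8 and 41.4, and the SDs of all bins overlap.

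The order of the counts along the bins differed between ends, and no single end was tested for a trend. On chromosome 3 the outermost bin held 36 shared summits and the following bins 52, 56, 54 and 58, so its outermost 1 Mb was its sparsest. On chromosome 5 the order was the opposite, with 47, 40, 37, 32 and 32 from the end inward. Chromosome 9 went from 30 at the end to 44 at 4 to 5 Mb. Chromosome 7 was high only in its outermost bin, with 56, followed by 39, 33, 41 and 35. Chromosome 10 was high in the middle, with 36, 48, 52, 39 and 27. The 60 bins had a median of 39, with quartiles of 34.8 and 46.3, and a variance 1.78 times their mean, more than Poisson counting gives. These bins span all ends, so that variance includes differences between chromosomes and does not show separate profiles within ends.

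**Figure D5:**
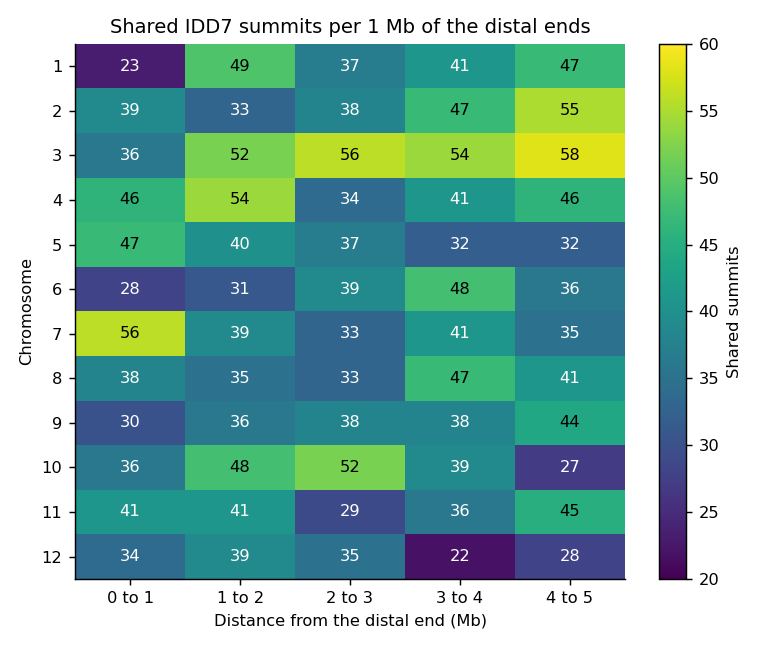
Number of shared summits in each 1 Mb bin of the distal ends (colour and printed number), by chromosome (y axis) and distance from the distal end (x axis, Mb). Values run from 22 on chromosome 12 to 58 on chromosome 3, and no column is high or low on every chromosome.

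The densest bins were on chromosomes 3 and 7. Chromosome 3 from 4000001 to 5000000 held 58 shared summits, of 86 list A and 85 list B summits there, so that 67.4% of the list A summits were shared. Chromosome 3 from 2000001 to 3000000 held 56 among 84 and 79. The outermost bin of chromosome 7, from 28683577 to 29683576, also held 56, but among 98 in each list (57.1% of list A). The sparsest bins differed in how many summits each list held. Chromosome 12 from 23527767 to 24527766 held 22 shared summits, although list A had 64 there and list B 53, a recurring share of 34.4% of list A. The outermost bin of chromosome 1, from 42247203 to 43247202, held 23 among only 53 and 45 (43.4%). Chromosome 10 from 18189489 to 19189488 held 27 among 62 and 49 (43.5%). These bins were chosen as the extremes of 60 and carry no test.

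Empty windows were counted next. Of 600 windows of 100 kb in the distal ends, 19 (3.17%, 95% Wilson interval 2.04 to 4.89%) held no shared summit, against 79 of 2526 (3.13%) in the interior and 29 of 600 (4.83%) in the opposite ends. Chromosome 6 had 5 of the 19 and chromosome 4 had 3, and chromosome 7 had 0 of 50 windows empty. The richest distal windows held 13 shared summits, on chromosomes 9 and 10. Stretches with no summit of either list exceeded 100 kb at 7 places in the distal ends, and were not counted elsewhere. The longest was 132.7 kb on chromosome 8 from 26613155 to 26745884, about 1672 kb from the end. The next were 126.5 kb on chromosome 6 from 29225123 to 29351628 and 113.5 kb on chromosome 7 from 24804040 to 24917573. Whether unsequenced bases or repeats fill these stretches was not tested.

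Most shared summits of the distal ends had no other shared summit close by. Summits found in 1 list only did not count as neighbours here, and groups were not formed for the interior. When shared summits were joined into groups in which each lay within 2 kb of the next, 1991 of 2392 (83.2%) were single, 366 were in pairs, and 11 groups held 3 or more summits (35 summits, 1.46%). Of these 11 groups, 6 lay on chromosome 3, 2 on chromosome 4 and 1 each on chromosomes 1, 2 and 11. The largest held 4 shared summits each. One spanned 2785 bp on chromosome 4 from 31871489 to 31874274, with 4 summits in each list. Another spanned 3441 bp on chromosome 2 from 35867783 to 35871224, also with 4 in each list, and lay 50.7 kb from the end. The tightest group of 3 spanned 1057 bp on chromosome 3 from 3053596 to 3054653. Chromosome 3 also had the most shared summits of any distal end, and no test of grouping was made.

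Shared sites reached almost to the last called interval on most chromosomes. The outermost shared summit lay within 5 kb of the end on 8 chromosomes, and at exactly 250 bp from it on 6. Since the end was set by the outermost interval, 250 bp is the smallest value possible on the chromosomes counted from their last interval. There it says only that the outermost interval belonged to a shared list A summit. Over the whole lists, 15606 of 36632 positions were shared. On chromosome 6 the outermost summit, at 31237805, was at the identical base in both lists. The largest distances were 104.2 kb on chromosome 3, measured from position 1, and 81.1 kb on chromosome 1. Chromosomes 7 and 12 had 25.0 and 11.9 kb.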

How the data were processed

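Per the labels, DAP-seq libraries of HaloTag-IDD7 (6) and HaloTag-GFP (6) used DNA sheared to about 250 bp, and about 6 Gb of 150 bp read pairs came from each. Per the submitters' processing notes, the tools were MACS2, Bowtie2, bedtools, deepTools, FastQC and fastp 0.23.2. No source used here gives their settings, the peak threshold or the build. The deposited lists hold only interval starts and ends, 500 bp apart, with no header, score or strand. GFP enters only through the authors' peak calling.

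The midpoint was taken as the summit. Chromosome names outside the 12 numbered ones were left out of the comparisons. Densities, shares and distances were computed per chromosome and compared by exact two-sided sign-flip permutation tests over the 12 chromosomes, with Benjamini-Hochberg adjustment over all 22 tests and a threshold of 0.05. The code was tested on simulated data. Python 3.11.15, NumPy 2.4.6 and SciPy 1.17.1 were used. Bins, stretches and groups were named as the extremes of their tables. Ties among groups were broken by the shorter span. The alternatives concerned the matching distance, pairing each summit once, the list B position, merged summits, the width of the ends, the outermost 100 kb, the extent of the interior, log2 ratios, the assignment of chromosome 3, and chromosomes left out singly or, for chromosomes 4, 9 and 10, together. The members and comparisons were chosen with earlier results of these data known, among them a lower shared density in the outer 5 Mb of the chromosomes, so the comparison with the interior is not independent of those results. A gene table of another assembly was at hand and not used.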

Additional observations from a re-analysis of the deposited data

How the results depend on the processing

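Each of the 22 comparisons was recomputed under 15 alternatives and with each chromosome left out in turn, giving 592 values. Of these, 68 equalled the reported value and p, many because the alternative does not enter that comparison. Of the other 524, 486 kept direction and side of the threshold, 6 newly passed it, all of them by replacing or leaving out chromosome 3, and 32 changed sign or came to 0, all of these in comparisons that missed the threshold before and after. All 5 comparisons under 0.05 before adjustment rose above it in at least 1 alternative. The cause was not tested.

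Distal minus interior, with the last 5 Mb of chromosome 3 as its distal end, the shared density differed by -3.78 per Mb, the list A gap by 1238 bp and the share with a neighbour by -3.38 percentage points. Without chromosome 3 these were -3.71, 1211 and -3.42. With the interior limited to the next 5 Mb, list B only density differed by -0.13 per Mb, and the shared density by -3.87 per Mb, the gap by 627 bp, the share with a neighbour by -1.45 points and the list B share by -1.66 points. With ends of 2 Mb these 4 were -2.38, 639, -1.33 and -1.38. The shared density was -2.30 and -2.77 for 6 and 8 Mb. Leaving out 1 chromosome gave -3.71 to -2.31 per Mb, 747 to 1211 bp and -3.42 to -2.21 points.

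Distal minus opposite end, list A only density was -0.12 per Mb for sharing within 100 bp, -1.42 and -0.89 for ends of 2 and 3 Mb, and 0 with the last 5 Mb of chromosome 3. The partner distance was 0.29 bp within 100 bp, and 0.17, 0.083, 0.33, 0.33 and 0.50 bp for ends of 2, 3, 4, 6 and 8 Mb. The list B share was 0.53 points and list B only density 0.92 per Mb for 2 Mb. With the last 5 Mb of chromosome 3, shared and list A densities were each -0.17 per Mb and the gap 347 bp, or 124 bp without chromosome 3. Leaving out 1 chromosome gave -0.18 to 1.11 per Mb for list A only, -0.68 to 0.23 bp for the partner distance and -402 to 132 bp for the gap.

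Outer minus inner part of the distal ends, the shared density was 1.21 and 0.17 per Mb for ends of 3 and 4 Mb, 0.54 with the last 5 Mb of chromosome 3, 0.65 without it, and -1.45 to 0.65 with 1 chromosome left out. Ends of 2 Mb have no inner part, and the log2 ratio was not taken of a log2 ratio. No paired analysis was possible because each list pools the numbered replicates and carries no value per library, and for the same reason no replicate could be left out. Without peak height or depth, a site missing from a list cannot be told apart from one just under the peak threshold.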
